A study of Arabidopsis thaliana with 6 samples.

Results

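The Aux/IAA and ARF genes of Arabidopsis thaliana, the nuclear repressors and the DNA-binding factors of the auxin response, were followed through the acinus-2 pinin-1 double mutant. Members were taken by family name, 25 Aux/IAA genes between IAA1 and IAA31 and 15 ARF genes, ARF1 to ARF11 and ARF16 to ARF19. This makes 40 of the 33602 genes counted, and other genes with these family names were not followed. The RNA-seq data hold 3 libraries of wild type (WT) and 3 libraries of the double mutant, which the labels write acinus-2 pnn, all from Col-0 seedlings grown in continuous light at an age of 12 days in the labels, while the study's methods give another age. The mutant carries a T-DNA insertion in AtACINUS and another in AtPININ, a pair of genes for proteins linked to splicing, and each allele is a single insertion line. The study calls the libraries biological replicates, and in such bulk samples fewer cells of a type and less RNA per cell cannot be told apart.

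Auxin acts by joining an Aux/IAA protein to a TIR1/AFB receptor, the F-box subunit of an SCF ubiquitin ligase, after which the Aux/IAA protein is degraded. While it is present, the Aux/IAA protein sits on an ARF and brings TOPLESS corepressors to the ARF's target genes. ARF proteins bind TGTC elements in promoters and are grouped into activators and repressors of transcription, and many Aux/IAA genes are themselves switched on by auxin, which closes a feedback loop. Several ARF RNAs are cut under the guidance of small RNAs.

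The degron, the stretch of an Aux/IAA protein that the receptor grips, separates the members by sequence. The letters of its core codons, GGNTGGCCNCCN read in frame on the coding strand only, were found in 22 of the 25 Aux/IAA coding sequences and in 34 of 27444 coding sequences of all genes, or 0.124%. The pattern was not present in IAA20, IAA30 and IAA31, of which IAA20 and IAA30 are known for lacking the degron. Of the 22 genes, 19 have an intron before these codons, and in 13 of them the motif starts 13 bases after the start of the exon. The distance was 10 bases in IAA11 and IAA12, 22 bases in IAA18, IAA26 and IAA28, and 28 bases in IAA29. Distances were taken from the longest coding sequence of each gene. For IAA13, counted here at 13 bases, most spliced reads used an acceptor 3 bases further downstream, which shortens the distance. In IAA5, IAA6 and IAA19, the motif lies in the first coding exon. The degron codons of the Aux/IAA genes with the highest levels and the largest changes described here are shown with the motif in capitals, read 5′ to 3′ on the coding strand from the TAIR10.1 genome.
IAA9, chr5:26255104-26255133, plus strand: caaattgtcGGTTGGCCTCCAgtgagatcc
IAA16, chr3:1289730-1289759, minus strand: caagttgtgGGATGGCCACCGgtacgatct
IAA26, chr3:5613662-5613691, minus strand: ccagtggtgGGTTGGCCTCCGgttcgttcg
IAA28, chr5:9033812-9033841, plus strand: ccagtggtgGGATGGCCGCCGgtgagatca
IAA19, chr3:5264307-5264336, plus strand: caggtggtgGGGTGGCCACCGgtttgttct
IAA13, chr2:14115233-14115262, minus strand: caagttgttGGATGGCCTCCTatagggtca

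Levels among the members were compared as RPKM, which the authors scaled to gene length and mapped reads. The Aux/IAA genes ran over a wide range. IAA9 stood highest, at 78.1 ± 3.81 RPKM in WT and 85.3 ± 1.07 in the mutant (SD, n = 3), followed by IAA16 at 76.2 ± 5.92 and 77.3 ± 5.37 (SD, n = 3), and the libraries of these neighbours overlapped in WT. IAA8, a close relative of IAA9, was the next gene in WT and in the mean over all 6 libraries. It had 51.5 ± 3.69 RPKM in WT and 46.9 ± 2.26 in the mutant (SD, n = 3). In the mutant, IAA7 stood above IAA8, at 49.6 ± 1.04 RPKM (SD, n = 3). The lowest Aux/IAA genes were IAA5, IAA6, IAA20, IAA29, IAA30 and IAA31, each at a mean below 1 RPKM, and the 3 genes without the degron codons were among them. The 15 ARF genes followed here were closer together. ARF2, a repressor known from seed size and leaf senescence, stood alone at the top with 50.8 ± 1.96 RPKM in WT and 47.3 ± 4.13 in the mutant (SD, n = 3). ARF1 and ARF6 came next, at 15.3 ± 0.741 and 13.5 ± 0.813 RPKM in WT (SD, n = 3). ARF17 and ARF11 were lowest in WT, at 3.73 ± 0.489 and 3.79 ± 0.177 RPKM (SD, n = 3). Their WT libraries overlapped each other and those of ARF18 and ARF19. Summed over all members, the Aux/IAA genes reached 423 to 472 RPKM in the WT libraries and 428 to 467 in the mutant libraries, and the ARF genes 163 to 173 and 156 to 174, so that the genotypes overlapped in both sums.

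**Figure D1:**
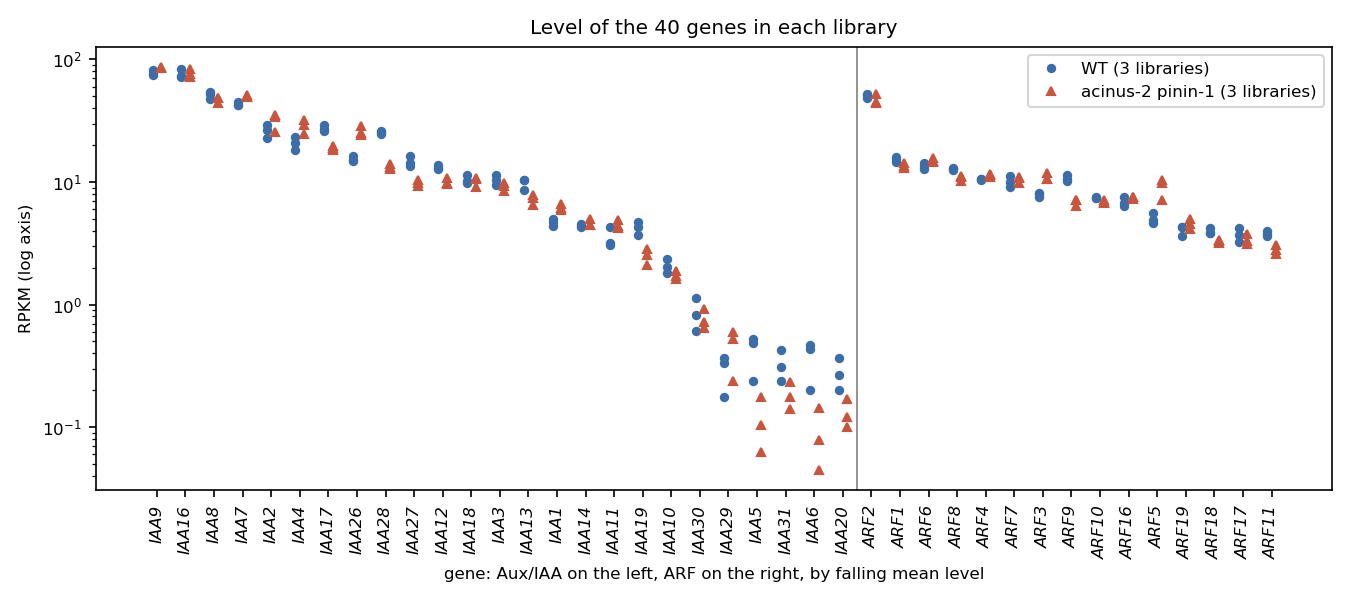
RPKM of each of the 40 genes in each library on a log axis, with WT libraries as circles and acinus-2 pinin-1 libraries as triangles. IAA9 and IAA16 lie highest among the Aux/IAA genes, ARF2 stands apart among the ARF genes, and the genes below 1 RPKM are all Aux/IAA genes.

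The comparison of the genotypes asks whether loss of AtACINUS and AtPININ changed the RNA level of these genes. Of the 40 members, 36 had enough reads to be tested. None passed the study's methods thresholds, a fold change above 2 at adjusted p under 0.02 (edgeR quasi-likelihood test, adjusted over all genes). Of all tested genes, 4.29% passed as higher and 4.88% as lower in the mutant. The study's results section gives 0.05 for the adjusted p-value, at which no tested member passed either, as none reached a fold of 2. DESeq2, limma and the fits with a library left out also called 0 members. At an unadjusted p-value under 0.05, 24 of the 36 members differed, beside 53% of all tested genes. Smaller differences were common in both families. At an adjusted p-value under 0.05 from edgeR with no fold threshold, 10 members rose and 11 fell, beside 22.5% and 23.6% of all tested genes. Both directions together came to 58.3% of the tested members and 46.1% of all tested genes. The median log2 fold change of the 36 members was -0.08, beside 0.001 over all genes, and the fitted values ran from -0.94 to 0.86.

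By family, 7 Aux/IAA genes rose, 6 fell and 8 did not pass, while 3 ARF genes rose, 5 fell and 7 did not pass. Among the 36 members, all mutant libraries lay above all WT libraries in 10 and below them in 15, where 27% and 28.2% of all tested genes did so. The number of members that rose depended on the libraries and the tool. It was 6 with WT replicate 2, mutant replicate 7 or mutant replicate 12 left out, and 6 with DESeq2 or with limma on log2(RPKM + 0.1). IAA4, IAA7, IAA26, ARF3 and ARF5 kept an adjusted p-value under 0.05 in each of these fits, as did 9 of the 11 members that fell, all but ARF1 and ARF18.

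**Figure D2:**
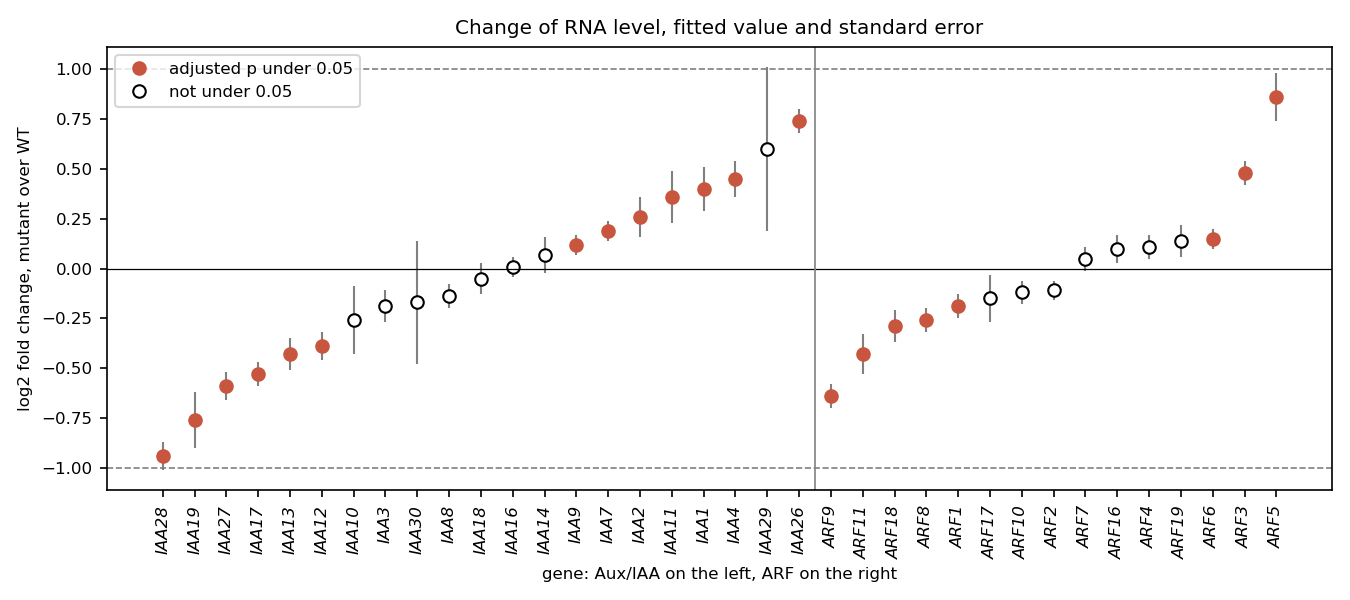
Log2 fold change of the mutant over WT for the 36 tested members, with the standard error from edgeR as bars, filled where the adjusted p-value was under 0.05. Every gene lies between the dashed lines at a fold change of 2, with IAA28 at -0.94 and ARF5 at 0.86 closest to them.

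Levels in each library are given from here on as CPM, read counts scaled to library size with TMM factors, which compare libraries for one gene and not genes with each other. Among the Aux/IAA genes that rose, IAA26 changed most. IAA26 (AT3G16500, TAIR10.1 chr3:5612203-5614803), also known as a phytochrome-associated protein, had 24.5, 24.7 and 24.4 CPM in the WT libraries and 38.8, 40.8 and 43.4 CPM in the mutant libraries. The genotypes did not overlap, and the level was 1.67-fold higher in the mutant (log2 fold change 0.74, SE 0.06, edgeR adjusted p = 1.6e-06). IAA18, a close relative of IAA26, was at 19.6 ± 0.89 and 18.9 ± 1.48 CPM (SD, n = 3, log2 fold change -0.05, edgeR adjusted p = 0.63), although the difference between these genes was not tested.

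IAA4 had 30, 31.8 and 26.6 CPM in WT and 35.7, 41.7 and 43.4 CPM in the mutant. The genotypes were separate, and the log2 fold change was 0.45 (SE 0.09, edgeR adjusted p = 0.001). Its sister gene IAA3, known as SHY2 for its part in root meristem size, was lower in every mutant library, from 14.8 ± 0.824 to 13 ± 0.694 CPM (SD, n = 3), and did not pass the test (edgeR adjusted p = 0.07).

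IAA1 and IAA2, another sister pair of early auxin-induced genes, both had higher fitted values. IAA1 had 4.53, 4.86 and 4.92 CPM in WT and 6.31, 6.16 and 6.45 CPM in the mutant, without overlap (log2 fold change 0.40, edgeR adjusted p = 0.0096, and 0.06 with DESeq2). IAA2 had 31, 31.8 and 26.9 CPM in WT and 29.8, 39.4 and 38.3 CPM in the mutant, so that 1 mutant library lay among the WT libraries (log2 fold change 0.26, edgeR adjusted p = 0.0498). IAA11 had 4.69, 6.01 and 4.63 CPM in WT and 6.31, 6.55 and 6.9 CPM in the mutant (log2 fold change 0.36, edgeR adjusted p = 0.034). The adjusted p-value of IAA2 reached 0.21 and that of IAA11 0.14 with a library left out. The other increases in this family were smaller still, at log2 fold changes of 0.19 for IAA7, the gene of the auxin-resistant axr2 mutants, and 0.12 for IAA9, whose adjusted p-value reached 0.12 with a library left out.

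The decreases among the Aux/IAA genes held in each of the fits named above. IAA28 (AT5G25890, chr5:9033204-9035140), whose stabilised protein suppresses lateral roots, had 27.4, 26.7 and 26.7 CPM in WT and 14.3, 14.9 and 13 CPM in the mutant. The WT libraries lay close together and the mutant libraries were far below them, at a 1.91-fold lower level (log2 fold change -0.94, SE 0.07, edgeR adjusted p = 6.4e-07). Leaving out single libraries gave values from -0.98 to -0.88.

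IAA19 (AT3G15540, chr3:5264001-5265695), known as MSG2 from bending of the hypocotyl toward light and against gravity, had 5.12, 5.28 and 4.51 CPM in WT and 2.51, 3.06 and 3.19 CPM in the mutant. It fell by 0.76 on the log2 scale (SE 0.14, edgeR adjusted p = 0.001) without overlap. Its relatives IAA5 and IAA6 had too few reads for the test. The WT libraries held 7, 10 and 5 reads of IAA5 and 9, 5 and 12 of IAA6, and those of the mutant held 3, 1 and 2 of IAA5 and 1, 3 and 2 of IAA6, so that no fold is given. Of the remaining members without a test, IAA20 had 4, 4 and 8 reads in WT and 3, 2 and 2 in the mutant, and IAA31 had 6, 6 and 12 against 4, 3 and 6.

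IAA27 had 22.5, 25.4 and 23.9 CPM in WT and 16.2, 15.2 and 16.1 CPM in the mutant, a log2 fold change of -0.59 (edgeR adjusted p = 2.8e-05). IAA17, the gene of the auxin-resistant axr3 mutants, had 34.7, 36.9 and 36.6 CPM in WT and 26.5, 24.4 and 23.8 CPM in the mutant, a log2 fold change of -0.53 (edgeR adjusted p = 3.1e-05). In both genes all WT libraries lay above all mutant libraries. IAA13 had 27.5, 25.6 and 23 CPM in WT and 19.7, 17.2 and 19.4 CPM in the mutant, again without overlap (log2 fold change -0.43, edgeR adjusted p = 0.001). IAA12, known as BODENLOS and the sister of IAA13, fell by 0.39 on the log2 scale (edgeR adjusted p = 0.00057). The IAA12 protein is a known repressor of the ARF5 protein in the embryo, and the RNA of ARF5 moved the other way, as described next. A link between these RNA changes was not tested.

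Of the other tested Aux/IAA genes, IAA10, IAA14, IAA29 and IAA30 overlapped between the genotypes and did not pass, with log2 fold changes of -0.26, 0.07, 0.60 and -0.17. The 3 Aux/IAA genes with the highest levels differed little. IAA16 had 116, 123 and 116 CPM in WT and 114, 120 and 123 CPM in the mutant, with overlap and a log2 fold change of 0.01 (SE 0.05, edgeR adjusted p = 0.84). IAA9 had 149, 155 and 159 CPM in WT and 170, 169 and 163 CPM in the mutant, and IAA8 had 110, 99.3 and 97.1 against 96.9, 89.3 and 91.7. Neither overlapped, with a higher level in the mutant for IAA9 and a lower one for IAA8, which did not pass the test (log2 fold change -0.14, edgeR adjusted p = 0.066).

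**Figure D3:**
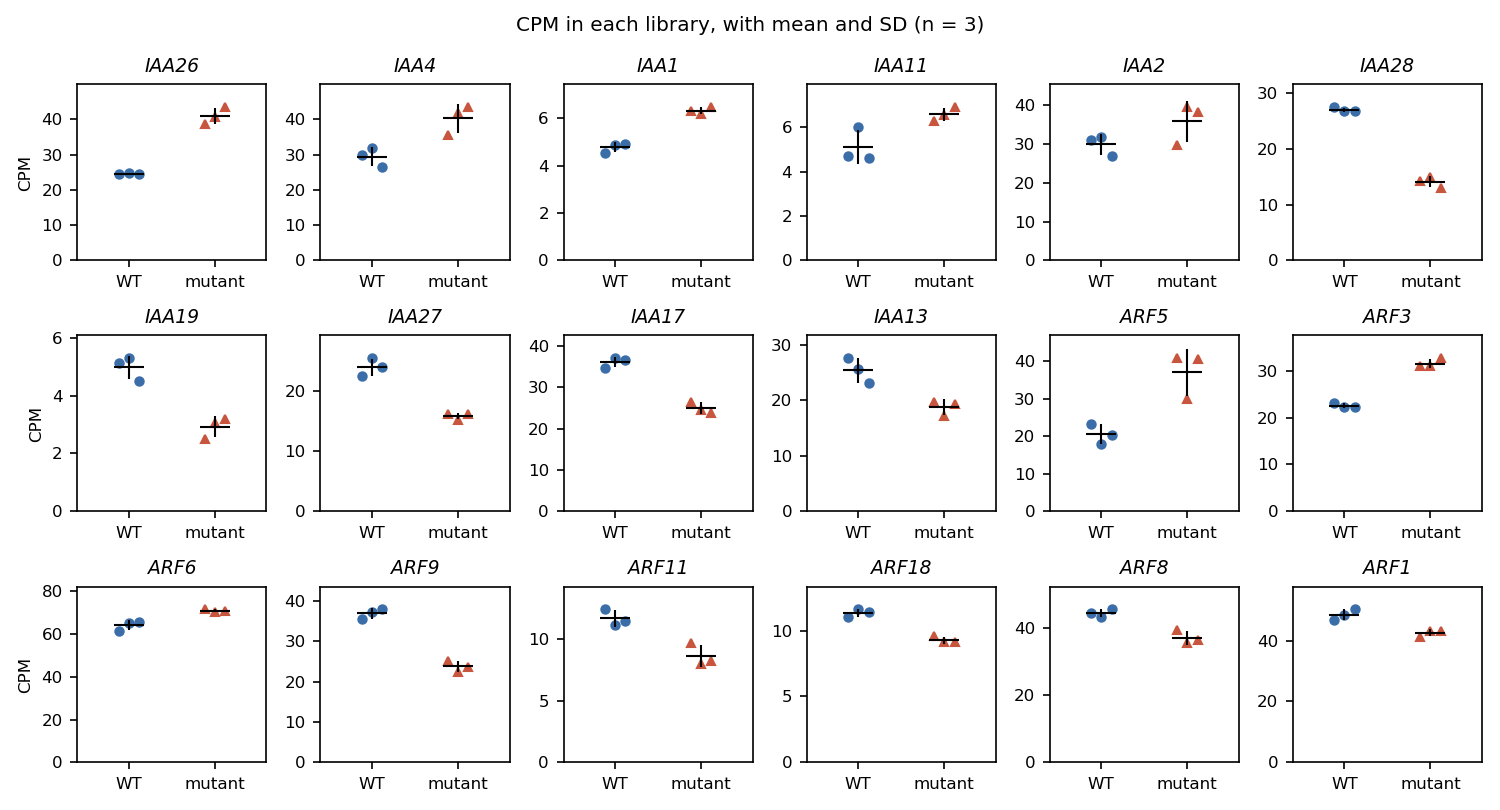
CPM in each library for the 18 members with the largest changes by family and direction, with the mean and SD of 3 libraries per genotype and axes that start at 0. IAA2 is the gene in which a mutant library lies among the WT libraries, and the mutant libraries of ARF5 are spread from 29.9 to 40.8 CPM.

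Among the ARF genes, the activators ARF5, ARF6, ARF7, ARF8 and ARF19 did not move as a group: 2 rose, 1 fell and 2 did not pass. Of all tested genes, 22.5% rose and 23.6% fell at the same threshold. ARF5 (AT1G19850, chr1:6886669-6891404), known as MONOPTEROS, which sets up the root pole, vascular tissue and flower primordia, rose most. It had 23.3, 18 and 20.5 CPM in WT and 40.8, 29.9 and 40.7 CPM in the mutant. The genotypes did not overlap, although mutant replicate 7 was lower than the other mutant libraries, and the level was 1.82-fold higher (log2 fold change 0.86, SE 0.12, edgeR adjusted p = 9.2e-05). Leaving out single libraries gave log2 fold changes of ARF5 from 0.77 to 0.99.

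ARF6 and ARF8, sister genes that act together in flower maturation, lay on opposite sides. ARF6 had 61.4, 65.2 and 65.8 CPM in WT and 71.6, 70.5 and 71 CPM in the mutant (log2 fold change 0.15, edgeR adjusted p = 0.03, and 0.065 with DESeq2). ARF8 had 44.3, 43.2 and 45.4 CPM in WT and 39.4, 35.4 and 36.3 CPM in the mutant (log2 fold change -0.26, edgeR adjusted p = 0.0038). Neither gene overlapped between the genotypes, and the difference between them was not tested. ARF7 and ARF19, the pair known for lateral root formation, had log2 fold changes of 0.05 and 0.14 and overlapped between the genotypes (edgeR adjusted p = 0.55 and 0.18).

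Of the 7 repressor ARF genes, 1 rose and 4 fell, again beside 22.5% and 23.6% of all tested genes. ARF3 (AT2G33860, chr2:14325206-14328978), known as ETTIN from the gynoecium and from leaf polarity, was the one that rose, from 23.1, 22.3 and 22.3 CPM in WT to 31, 30.9 and 32.6 CPM in the mutant. Libraries of one genotype differed little from each other, and the log2 fold change was 0.48 (SE 0.06, edgeR adjusted p = 4.6e-05). ARF4, which shares the leaf polarity role of ARF3, had a log2 fold change of 0.11 and did not pass the test (edgeR adjusted p = 0.16).

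ARF9, ARF11 and ARF18, close relatives of each other, all fell. ARF9 (AT4G23980, chr4:12451143-12455369) had 35.5, 37.3 and 37.9 CPM in WT and 25.2, 22.5 and 23.6 CPM in the mutant, a log2 fold change of -0.64 (SE 0.06, edgeR adjusted p = 7.8e-06). ARF11 had 12.4, 11.1 and 11.5 CPM in WT and 9.64, 8 and 8.24 CPM in the mutant (log2 fold change -0.43, edgeR adjusted p = 0.003). ARF18 had 11, 11.6 and 11.4 CPM in WT and 9.55, 9.12 and 9.11 CPM in the mutant (log2 fold change -0.29, edgeR adjusted p = 0.011, and 0.078 with DESeq2). In all of these genes the WT libraries lay above the mutant libraries.

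ARF1 had 46.6, 48.4 and 50.2 CPM in WT and 41.3, 43.2 and 43.2 CPM in the mutant (log2 fold change -0.19, edgeR adjusted p = 0.016, and 0.086 with limma on RPKM). ARF2 had 222, 215 and 215 CPM in WT and 193, 197 and 213 CPM in the mutant. The highest mutant library of ARF2 came close to the WT libraries without reaching them, and ARF2 did not pass the test (log2 fold change -0.11, edgeR adjusted p = 0.078). ARF10, ARF16 and ARF17, the class under control of miR160, had log2 fold changes of -0.12, 0.10 and -0.15, and none of these genes passed. A share of at most 0.758% of the reads of any member in any library could be placed at more than 1 locus. However, 10 members overlap a gene on the opposite strand, among them IAA11, IAA13, IAA27, ARF1 and ARF5, and the sources used here do not state that the counting used strand.

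Small RNAs reach these genes at known sites, which are shown because the host genes of the small RNAs could be counted too. Mature miR167a guides the cutting of ARF6 and ARF8, and miR160a that of ARF10, ARF16 and ARF17. The miRNAs are written as DNA from the TAIR10.1 genome with the seed, bases 2 to 8, in capitals. In the sites, bases that form an A:T or G:C pair with the miRNA are in capitals.
miR167a, chr3:8108090-8108110, plus strand: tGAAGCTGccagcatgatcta
Site in ARF6, chr1:10686478-10686498, minus strand: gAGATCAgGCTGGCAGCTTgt
Site in ARF8, chr5:14633841-14633861, plus strand: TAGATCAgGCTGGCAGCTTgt
miR160a, chr2:16340282-16340302, plus strand: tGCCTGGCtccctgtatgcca
Site in ARF10, chr2:12115741-12115761, plus strand: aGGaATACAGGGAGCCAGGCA
Site in ARF16, chr4:14704141-14704161, minus strand: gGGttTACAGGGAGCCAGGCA
Site in ARF17, chr1:29274189-29274209, plus strand: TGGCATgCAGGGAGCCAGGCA

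G:U pairs were counted as mismatches. The site in ARF6 had 4 mismatches to miR167a and that in ARF8 had 3, and the best site in any other ARF transcript had 7. For miR160a, ARF17 had 1 mismatch, ARF10 had 2 and ARF16 had 3, against 8 or more elsewhere. The transcript of MIR167A, which holds miR167a, had 5, 13 and 6 reads in WT and 29, 29 and 37 reads in the mutant. It was among the genes called higher (log2 fold change 2.03, SE 0.32, edgeR adjusted p = 0.00025), beside the lower level of ARF8 and the slightly higher level of ARF6. RNA-seq of this kind counts the precursor and not the mature miRNA. The 3 MIR160 genes, MIR167B, MIR390A and MIR390B had too few reads for the test. MIR167B had 8, 9 and 11 reads in WT and 2, 1 and 7 in the mutant, opposite to the direction of MIR167A. TAS3, the source of the small RNAs against ARF2, ARF3 and ARF4, had 10.7, 10.8 and 10.1 CPM in WT and 5.16, 5.72 and 5.47 CPM in the mutant. It fell by 0.95 on the log2 scale (SE 0.10, edgeR adjusted p = 7e-06) beside the higher level of ARF3, while ARF2 and ARF4 did not pass the test. Whether these changes are connected was not tested.

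Promoters were searched over the 250 bases before each gene start for the auxin response elements TGTCTC and TGTCGG on both strands, each promoter counted once per motif. TGTCTC was found before 7 of the 25 Aux/IAA genes and 1 of the 15 ARF genes, or 28% and 6.67%, beside 10.9% of 27443 protein-coding genes. TGTCGG was found before 6 Aux/IAA genes and 2 ARF genes, or 24% and 13.3%, beside 4.16% of all. In no member did copies of the motifs overlap each other. IAA19 had the most copies of TGTCTC, and its promoter is shown beside that of IAA28, the member that fell most, which held neither motif in this window. The elements are in capitals, and both sequences run 5′ to 3′ up to the gene start.
IAA19, chr3:5263751-5264000, plus strand: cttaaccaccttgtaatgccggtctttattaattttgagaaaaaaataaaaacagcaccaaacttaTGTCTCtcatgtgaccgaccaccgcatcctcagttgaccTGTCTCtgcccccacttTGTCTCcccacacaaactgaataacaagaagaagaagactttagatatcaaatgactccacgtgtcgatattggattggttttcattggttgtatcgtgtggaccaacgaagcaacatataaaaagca
IAA28, chr5:9032954-9033203, plus strand: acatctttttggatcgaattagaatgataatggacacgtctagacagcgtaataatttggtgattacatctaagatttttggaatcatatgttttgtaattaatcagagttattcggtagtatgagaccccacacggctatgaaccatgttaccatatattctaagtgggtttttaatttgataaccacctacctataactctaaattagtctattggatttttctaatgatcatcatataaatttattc

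IAA19 held 3 copies of TGTCTC and fell, as did IAA28 with none. Of the 14 members with either motif, 11 were tested. IAA1 and ARF3 rose, IAA12, IAA13, IAA19 and IAA27 fell, and the other 5, IAA8, IAA16, IAA30, ARF7 and ARF19, did not pass. At this threshold, 58.3% of all tested members and 46.1% of all tested genes passed in either direction.

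AtACINUS and AtPININ are splicing factors, so the introns of the members were tested as well. The 40 genes have 230 introns in the tables, 226 of which could be placed on the TAIR10.1 genome. Splices inside a single counted exon, as seen in IAA11, IAA12 and ARF2, are not among these 230 introns and were not tested for retention. A total of 71 introns in 26 genes were covered by 10 or more reads in all and by 10 or more exon reads per library. None of the 71 passed the thresholds for changed retention, namely edgeR adjusted p under 0.05, a ratio changed by more than 2-fold, more than 1 RPKM on the intron and a ratio to exon reads over 5%, while 0.788% of all tested introns passed as higher and 0.047% as lower. DESeq2 also called 0 introns of the members, but its calls over all introns were not counted, so this 0 adds no support. At an unadjusted p-value under 0.05, 11 of the 71 introns differed in either direction, beside 11.1% of all tested introns. The smallest adjusted p-value among them was 0.108, and log2 fold changes of the ratio had a median of -0.05, beside -0.03 over all introns.

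Among introns with a mean of 10 reads in WT, intron 9 of ARF1 (AT1G59750) had the highest retention of the members, and it also had the smallest p-value of the 71. It received 19, 37 and 29 reads in WT and 38, 42 and 58 reads in the mutant. Per 100 reads on the neighbouring exons, this was 13, 17.1 and 11.6 in WT and 25.7, 24.4 and 29.1 in the mutant, without overlap. The log2 fold change of the ratio was 0.93 (SE 0.29, unadjusted p = 0.0021, edgeR adjusted p = 0.11), just under a fold of 2. Leaving out single libraries gave values from 0.79 to 1.12. The adjusted p-value was 0.04 where only introns with at least 20 reads were tested, a setting chosen after the data were seen, and 1 with DESeq2. The intron has 225 bases, interrupts the coding sequence after 800 bases and, when retained, brings a first in-frame stop codon at its base 125, which is in capitals.
ARF1 intron 9, chr1:21982194-21982418, plus strand: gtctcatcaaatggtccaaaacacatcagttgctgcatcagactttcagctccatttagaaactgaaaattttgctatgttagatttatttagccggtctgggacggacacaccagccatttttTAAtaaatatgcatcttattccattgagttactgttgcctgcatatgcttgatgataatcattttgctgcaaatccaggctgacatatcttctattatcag

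Intron 12 of ARF1 moved the same way from a lower level, with 4, 7 and 4 reads in WT and 6, 12 and 22 reads in the mutant (log2 fold change of the ratio 1.54, unadjusted p = 0.0029, edgeR adjusted p = 0.13). Without mutant replicate 6, the adjusted p-value was 0.048. The retained share of this intron was small, at most 5.51 reads per 100 exon reads in any library. ARF1 intron 12 and ARF3 intron 1 were chosen after their values were seen, as the introns next in p-value. ARF3 intron 1 had 4, 9 and 14 reads in WT and 5, 2 and 5 in the mutant (log2 fold change of the ratio -1.61, edgeR adjusted p = 0.19).

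In the Aux/IAA genes, the introns with the highest retention in WT at that depth were intron 2 of IAA7, intron 1 of IAA16 and intron 1 of IAA18. IAA7 intron 2 had 40, 45 and 50 reads in WT and 43, 32 and 39 in the mutant, or 4.58 ± 0.73 and 3.57 ± 0.489 per 100 exon reads (SD, n = 3). IAA16 intron 1, which ends 13 bases before the degron motif, had 55, 81 and 64 reads in WT and 63, 65 and 76 in the mutant, or 3.14 ± 0.316 and 3.31 ± 0.165 per 100 exon reads (SD, n = 3). The genotypes overlapped on both introns (edgeR adjusted p = 0.7 and 0.95). IAA18 intron 1, before the degron codons as well, had fewer reads in the mutant, 3, 5 and 3 against 10, 11 and 13 in WT, without overlap (log2 fold change of the ratio -1.49, unadjusted p = 0.0064, edgeR adjusted p = 0.2). ARF17 intron 2 had 8, 13 and 14 reads in WT and 8, 21 and 12 in the mutant, and mutant replicate 7 alone stood high, at 23.6 per 100 exon reads against 7.14 and 11.4. Without that library, the log2 fold change of the ratio moved from 0.53 to -0.0008.

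When retained, the introns of IAA7, IAA16 and IAA18 named here bring a stop codon that begins at their base 9, 2 and 5. A single intron passed all thresholds with an unadjusted p-value in place of the adjusted one, intron 3 of IAA13. It had 1, 0 and 4 reads in WT and 4, 5 and 6 in the mutant (log2 fold change of the ratio 1.99, unadjusted p = 0.012, edgeR adjusted p = 0.27), a difference of a few reads.

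Splice site choice within the members was most often a choice between acceptors a few bases apart. Of 9 alternative donor or acceptor forms with enough reads, 6 were pairs of acceptors at a distance of 3 or 6 bases, so that either choice keeps the reading frame where the exon is coding. Each pair is shown over 30 bases, with both AG dinucleotides in capitals.
ARF2 intron 14, chr5:24914798-24914827, plus strand: gttctgttaatgacAGcAGgatgggggtcg
IAA9 intron 5, chr5:26256075-26256104, plus strand: actggtgatattgcAGctgcAGctccgaga
IAA8 intron 6, chr2:9638400-9638429, plus strand: atttattctgtggcAGctccAGgtgcagtg
ARF6 intron 1, chr1:10689894-10689923, minus strand: agttttggattgaaAGttacAGgagagaaa
ARF4 intron 9, chr5:24309769-24309798, minus strand: ttcttggttgcAGcAGaaaggggtggtttt
IAA13 intron 1, chr2:14115253-14115282, minus strand: tttgctttgtttgtAGcAGtcaagttgttg

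None of the 9 forms passed the study's test, Fisher's exact test with unadjusted p under 0.05 in all 9 WT-mutant library pairs. With the thresholds on fold and frequency, 0.226% of 3989 forms in all genes did. The edgeR fit also called 0 of them, but its calls over all forms were not counted, so this 0 adds no support. ARF2 split its spliced reads almost evenly. The downstream acceptor took 97 of 166, 148 of 270 and 127 of 264 reads in WT and 125 of 212, 119 of 203 and 200 of 333 reads in the mutant. This amounted to 53.8% ± 5.24 in WT and 59.2% ± 0.752 in the mutant (SD, n = 3), the mutant libraries lying above those of WT by a narrow margin (exact permutation test, 2-sided, p = 0.1, below which 3 against 3 libraries cannot go).

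IAA8 and IAA9 shared the same feature in their last intron, a second acceptor 6 bases downstream that was seldom used. In IAA9 it took 12, 13 and 22 reads in WT and 12, 14 and 25 in the mutant, 3.42% ± 0.821 and 3.62% ± 0.966 of the spliced reads (SD, n = 3). In IAA8 it took 14, 15 and 7 reads in WT and 6, 7 and 9 in the mutant, 5.46% ± 2.25 and 3.76% ± 0.824 (SD, n = 3). The genotypes overlapped in both genes (2-sided exact permutation test, p = 0.7 and p = 0.4). IAA13 used the downstream acceptor in most spliced reads, 92.8% ± 6.28 in WT and 89.5% ± 6.66 in the mutant (SD, n = 3). This pair lies just before the degron codons, which begin 13 bases after the upstream acceptor. In ARF6 and ARF4 the alternative acceptor took 28.8% ± 15.4 and 32.8% ± 6.9 of at most 32 spliced reads a library in WT (SD, n = 3), and both genes overlapped between the genotypes.

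The remaining 3 forms were all in ARF1, a donor of intron 1 and combinations of nearby donors and acceptors of intron 12, and their shares overlapped between the genotypes. A single exon skipping event of the members had enough reads. It joined exons 1 and 3 of IAA8 in 151, 160 and 173 reads in WT and 156, 131 and 165 reads in the mutant. The inner junctions had 4, 6 and 5 reads in WT and 6, 2 and 6 in the mutant, so that the skipped form was the usual one in both genotypes, at 98.5% each. It was not called (log2 fold change 0.02, unadjusted p = 0.98), beside 0.121% of 828 events in all genes.

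**Figure D4:**
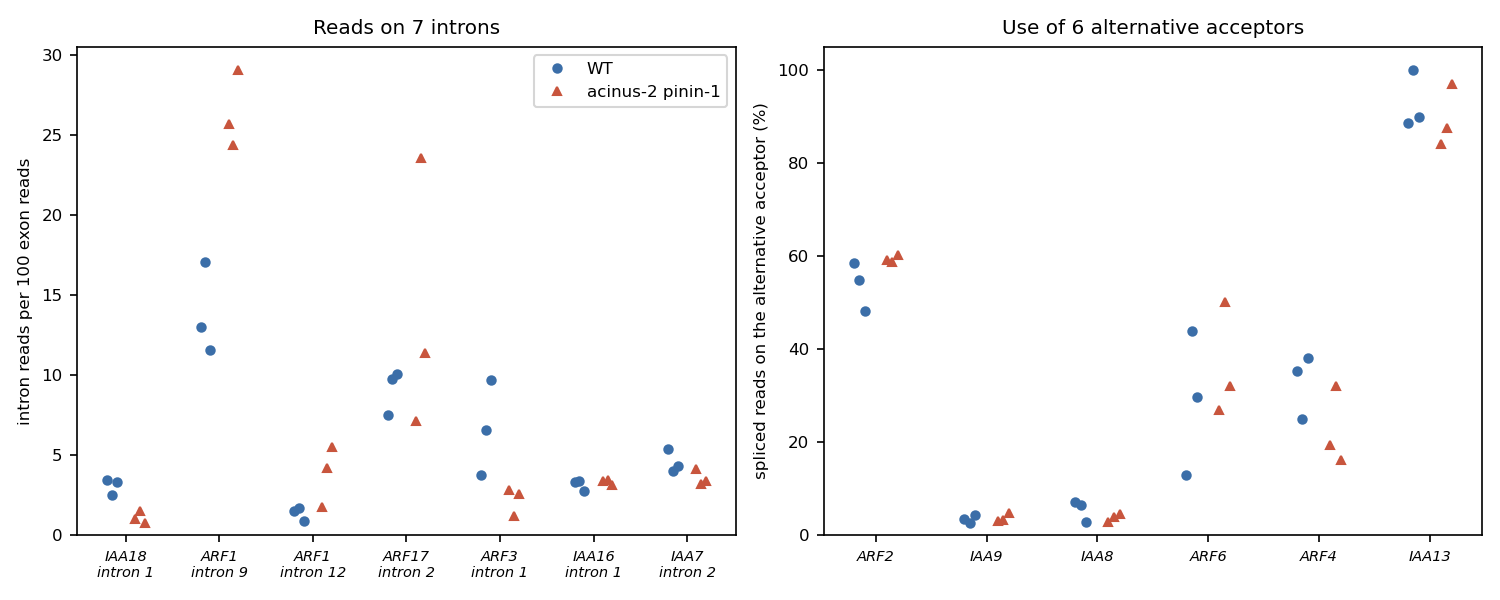
On the left, reads on 7 introns per 100 reads of the neighbouring exons in each library, and on the right, the share of spliced reads on the alternative acceptor of 6 acceptor pairs. Circles are WT and triangles are acinus-2 pinin-1, and ARF1 intron 9 lies at 11.6 to 17.1 in WT and 24.4 to 29.1 in the mutant.

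The other genes of the auxin pathway were taken from lists of receptors, ligase subunits, corepressors, synthesis, transport, early response and small RNA genes. Of these 71 genes, 57 were tested, and 14 rose and 19 fell at an adjusted p-value under 0.05. Both directions together came to 57.9% of the 57, beside 46.1% of all tested genes. At the study's thresholds, 2 were called higher and 5 lower, where 4.29% and 4.88% of all tested genes were. The receptors that read auxin differed little. Of TIR1 and AFB1 to AFB5, only AFB5 passed the test, with a log2 fold change of 0.23, and TIR1 was at 0.02 (edgeR adjusted p = 0.0066 and 0.74). Among the subunits and activators of the SCF ligase, ASK1, CUL1 and ECR1 rose by 0.21, 0.31 and 0.34 on the log2 scale and none fell. Among the TOPLESS corepressors, which Aux/IAA proteins bring to ARF targets, TPR1, TPR3 and TPR4 fell, with log2 fold changes of -0.38, -0.22 and -0.33, while TOPLESS itself was at 0.05 and did not pass (edgeR adjusted p = 0.51).

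Synthesis genes moved more and in both directions. TAA1, which makes the precursor of auxin, rose by 0.65 on the log2 scale, whereas its relative TAR2 was called lower, from 10.2, 8.68 and 9.81 CPM in WT to 4.34, 3.4 and 5.01 CPM in the mutant (log2 fold change -1.15, edgeR adjusted p = 2.6e-05). Of the YUCCA genes, which complete auxin synthesis, YUC3 and YUC9 were called lower, and YUC5 was called higher, all at low levels. YUC3 had 41, 65 and 46 reads in WT and 10, 10 and 6 in the mutant (log2 fold change -2.47). YUC9 had 42, 72 and 63 against 24, 25 and 30 (log2 fold change -1.10), and YUC5 had 14, 21 and 16 against 33, 49 and 55 (log2 fold change 1.48). None of these overlapped between the genotypes. Of 13 transport genes tested, 6 fell and 1 rose, together 53.8% beside 46.1% of all tested genes. PIN2, the carrier of the root epidermis, had the lowest fitted value, -0.73.

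The early response genes, whose RNA is used as a readout of auxin signalling together with the Aux/IAA genes, were divided as well. Among the GH3 genes for enzymes that conjugate auxin to amino acids, GH3.2 was called lower, from 4.75, 4.44 and 4.18 CPM in WT to 2.01, 2.38 and 2.2 CPM in the mutant (log2 fold change -1.01, edgeR adjusted p = 0.00014). GH3.3, GH3.5, GH3.6, GH3.9 and GH3.17 rose, at log2 fold changes of 0.94, 0.70, 0.69, 0.43 and 0.49. SAUR15, SAUR20, SAUR21 and SAUR22, of a family tied to cell expansion, fell, and SAUR20 was called, from 1.92, 1.87 and 1.42 CPM in WT to 0.685, 0.728 and 0.835 CPM in the mutant (log2 fold change -1.19), although the genes from SAUR19 to SAUR24 are near copies and their reads may be divided uncertainly.

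**Figure D5:**
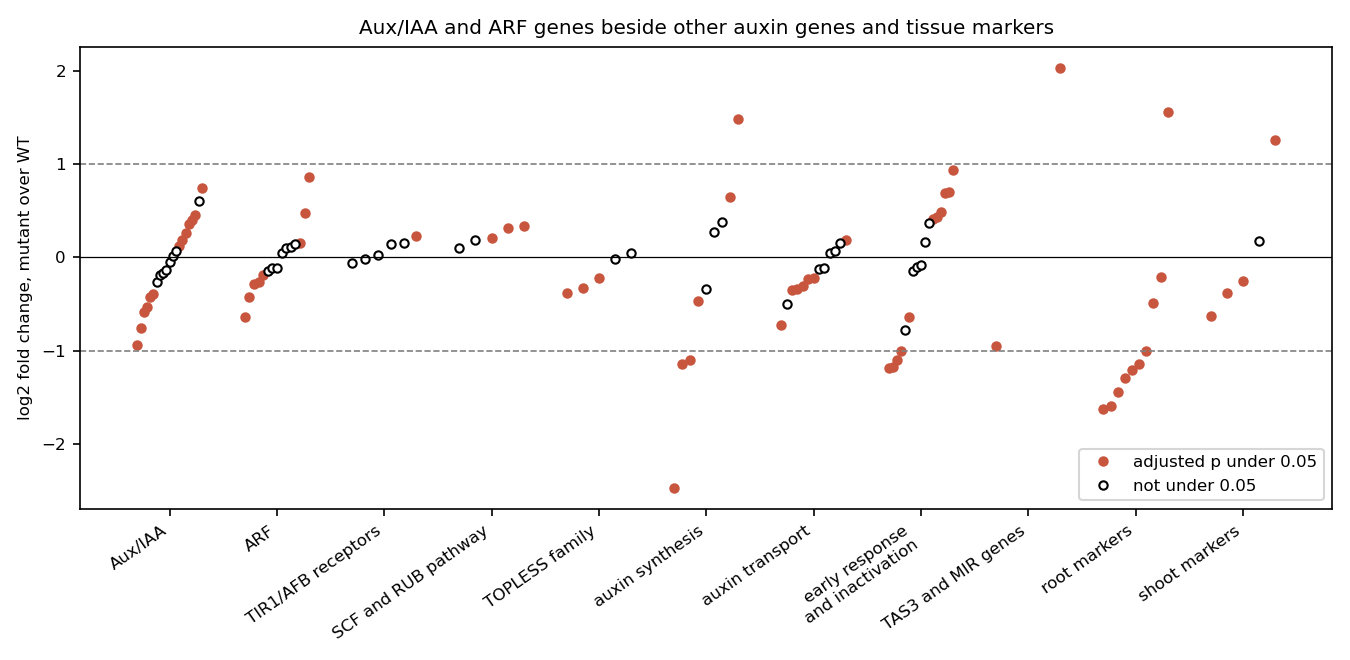
Log2 fold change of the mutant over WT for each tested gene of the Aux/IAA and ARF families, of the other auxin lists and of root and shoot markers, filled where the adjusted p-value was under 0.05. The Aux/IAA and ARF genes stay within the dashed lines at a fold change of 2, and 7 root markers were called lower.

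Markers of organs moved with the genotype. Of the 10 root markers 9 fell and 1 rose, and 7 of those that fell were called at a fold change above 2. The summed level of the list, 794 to 954 RPKM in WT and 582 to 653 in the mutant, came mostly from PYK10, a 1.4-fold lower gene. Without PYK10, the other 9 markers summed to 44.1 to 51.3 RPKM in WT and 22.6 to 27.5 in the mutant. CASP1, a Casparian strip gene, had a log2 fold change of -1.44, COBL9 and RHD6 of the root hairs had -1.14 and -1.63, and PIN2, above, moved to the same side, whereas WOX5 of the root tip organiser was at 1.56. The summed level of the 5 shoot markers was 15963 to 17468 RPKM in WT and 13168 to 13645 in the mutant. Within that list, RBCS1A, RBCS3B and CAB1 fell and STM, which keeps the shoot meristem, rose by 1.26 on the log2 scale. CAB3 overlapped between the genotypes and did not pass (log2 fold change 0.17, edgeR adjusted p = 0.072). Of the flower genes, AP3, AG and AP1 had too few reads for the test, and PI had 2, 7 and 3 reads in WT and 10, 11 and 13 in the mutant (log2 fold change 1.53). The part of root and shoot content in the lower levels of IAA28, IAA19, IAA17, IAA27 and ARF9 and in the higher levels of ARF5 and IAA26 was not tested.

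Each library had from 18890178 to 27622690 reads on genes. Counts of libraries of one genotype differed by more than counting error (chi-square over its degrees of freedom 3.63 to 10.4), so that each was taken as a sample of its own. AtACINUS, counted over the whole gene, fell from 97.3 to 99.2 CPM in the WT libraries to 33 to 34.9 CPM in the mutant libraries, while AtPININ was higher, at 47.1 to 53.3 CPM in WT and 80 to 101 CPM in the mutant. A count over the whole gene does not separate a truncated transcript from a complete one.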

How the data were processed

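RNA-seq libraries of 6 seedling samples, 3 per genotype, were analysed. Per the methods, the authors mapped reads to the TAIR10 genome and ran RACKJ at default settings. The version of RACKJ and the gene model are not given in the sources used here, and STAR and DESeq2, which the submitters' processing notes also name, served the authors' own mapping and gene test. What the authors deposited were expected counts for genes, exons and introns, RPKM of genes, the fraction of reads at several loci, and counts of spliced reads. Expected counts were rounded to whole numbers.

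The gene test was that of edgeR 4.0.16 under R 4.3.3 (filterByExpr, TMM, quasi-likelihood). Introns and exon skipping were tested on the ratio to reads of the neighbouring exons or inner junctions, with 1 term per library. For donors and acceptors, every WT library was set against every mutant library with Fisher's exact test. The p-values of Fisher's exact test and of the permutation tests were not adjusted. Adjusted p-values of the other tests were taken over all features tested (Benjamini-Hochberg). DESeq2 1.42.0, limma 3.58.1 on log2(RPKM + 0.1), other normalization and filters, and leaving out each library were the alternatives. The tests were checked on simulated data. Introns in the tables are numbered along the chromosome and were renumbered here along the transcript. Sequences and coordinates come from RefSeq TAIR10.1, on which 226 of the 230 introns of the members were placed by their lengths.

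The members and gene lists were chosen with earlier results of these data known. Named with values in each library were, in each family and direction, up to 5 members with the largest log2 fold change that had a mean of 50 reads and an adjusted p-value under 0.05, and the 3 members with the highest RPKM. For introns these were, per family, up to 3 with the highest ratio in WT at a mean of 10 reads, and for acceptors the 3 with most reads of the minor form.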

Additional observations from a re-analysis of the deposited data

How the results depend on the processing

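No member was called at a fold change above 2 under any alternative that kept this threshold, and none of their introns, exon skipping events, donors or acceptors was called under any alternative with its own threshold kept. With an adjusted p-value under 0.05 and no fold threshold, 10 members were higher and 11 lower. With an unadjusted p-value for introns, 1 was called. Leaving out a library turned the sign of 4 of the 36 members (IAA16, IAA18, IAA30 and ARF7) and of 35 of the 71 introns, none of which had passed the test. On the log2 scale, IAA16 lay between -0.01 and 0.05 and the ratio of IAA16 intron 1 between -0.01 and 0.13. The ratio of ARF17 intron 2, at 0.53 with all libraries, lay between -0.0008 (without mutant replicate 7) and 0.88. No paired analysis was possible because the replicate numbers of the genotypes (2, 4 and 5 against 6, 7 and 12) share no number. Depth limits IAA5, IAA6, IAA20 and IAA31, with 12 reads or fewer in any library, and the introns of the members beyond the 71 tested.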
